A study of Mus musculus with 30 samples.

Results

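The interferon regulatory factor (IRF) family is a set of transcription factors that share a DNA-binding domain. The 8 members described here, Irf1, Irf2, Irf3, Irf4, Irf5, Irf7, Irf8 and Irf9, were taken by symbol from a table of 37991 Ensembl gene IDs, and all 8 passed the filter on low counts that left 11030 genes for testing.

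The study sorted phagocytes from the spleens of female TLR7.1 mice, a transgenic line that overexpresses Tlr7, and of female wild-type (WT) B6 mice. Inflammatory hemophagocytes (iHPC), cells that take up blood cells, were sorted from 6 TLR7.1 mice by the gate Ly6C- CD31-high VCAM-low F4/80-low CD11b+. Red pulp macrophages (RPM), the resident macrophages that clear aged red cells, were sorted from the same 6 TLR7.1 mice and from 6 WT mice as Ly6C- CD31-low VCAM-high F4/80+ cells. Ly6C-high monocytes (Mono) came from the same 12 mice as Ly6C+ Ccr2+ CD11b+ cells. The mice were 9.4 to 15.7 weeks old, carried no other allele or treatment given in the labels, and were collected on 13, 21 and 26 December. Each of the 30 libraries was made from 500 sorted cells, so each of the 5 groups (TLR7.1 iHPC, TLR7.1 RPM, TLR7.1 Mono, WT RPM and WT Mono) has 6 libraries. There was no WT iHPC group, so genotype was compared only in RPM and Mono.

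IRF proteins read out signals from pattern recognition receptors and from interferon receptors. TLR7, an endosomal receptor for single-stranded RNA, signals through MyD88 and IRAK kinases to IRF5 and IRF7, which switch on cytokine and interferon genes once phosphorylated. IRF3 serves the same purpose downstream of RIG-I-like receptors, STING and TLR3, and IRF9 is the DNA-binding subunit of ISGF3, the complex that carries interferon receptor signals to the nucleus. IRF1 activates and IRF2 mostly antagonises interferon-responsive promoters. IRF8 directs the development of monocytes and dendritic cells together with PU.1 (gene Spi1), and IRF4, its closest relative, acts in plasma cells, B cells, dendritic cells and alternatively activated macrophages.

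Promoters of the members are shown because several of them are themselves known to be interferon-inducible. RefSeq windows of 300 bases (250 before and 50 after the gene start, build GRCm38.p6) were found for 8 members, in 11 windows. Motifs were searched on both strands with overlaps allowed: the ISRE GAAANNGAAA, bound by IRF proteins and ISGF3, the EICE GGAANNGAAA, bound by PU.1 with IRF4 or IRF8, and the GAS TTCNNNGAA, bound by STAT dimers. A match was present in 3.44%, 2.72% and 8.3% of the 32851 mouse windows searched, in that order of motifs. The windows of Irf8 (chr8:120736108-120736407, + strand), Irf1 (chr11:53769764-53770063, + strand) and Irf2 (chr8:46739495-46739794, + strand) held matches, which are in capitals:
Irf8: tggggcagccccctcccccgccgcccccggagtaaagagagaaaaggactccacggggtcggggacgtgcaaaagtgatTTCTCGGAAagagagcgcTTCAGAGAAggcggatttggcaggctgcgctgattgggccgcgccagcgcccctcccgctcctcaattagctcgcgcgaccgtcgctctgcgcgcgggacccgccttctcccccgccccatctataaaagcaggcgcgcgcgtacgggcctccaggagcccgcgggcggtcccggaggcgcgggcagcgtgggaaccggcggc
Irf1: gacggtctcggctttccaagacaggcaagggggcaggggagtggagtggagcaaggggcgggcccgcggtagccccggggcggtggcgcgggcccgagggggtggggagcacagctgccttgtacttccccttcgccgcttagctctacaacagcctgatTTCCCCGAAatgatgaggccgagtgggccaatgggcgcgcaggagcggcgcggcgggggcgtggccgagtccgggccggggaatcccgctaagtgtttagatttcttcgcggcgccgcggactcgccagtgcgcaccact
Irf2: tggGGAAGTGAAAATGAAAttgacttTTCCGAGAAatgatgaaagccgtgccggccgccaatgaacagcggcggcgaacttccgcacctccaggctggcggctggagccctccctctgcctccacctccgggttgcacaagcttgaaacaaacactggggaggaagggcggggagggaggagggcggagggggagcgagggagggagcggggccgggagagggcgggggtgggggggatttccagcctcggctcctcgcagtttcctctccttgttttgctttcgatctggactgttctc
The Irf8 window held 2 GAS matches, starting 171 and 153 bases before the gene start, and the Irf1 window held 1, starting 90 bases before it. The Irf2 window held overlapping EICE and ISRE matches, starting 247 and 241 bases before the gene start, and a GAS match starting at 224. The letters of these motifs were not in the other 8 windows, which are those of Irf3, Irf4, Irf5, Irf7 and Irf9 and a further window each of Irf1, Irf8 and Irf9.

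Levels are given as normalised CPM (counts scaled to library size, with TMM factors), and differences as log2 fold changes with their standard error (SE). Adjusted p-values are those of edgeR's quasi-likelihood test with Benjamini-Hochberg adjustment over all 11030 genes, and a gene is said to be called, to rise or to fall, where the adjusted p is under 0.05. Library totals ranged over 95002 to 1932427 counts, and 3 libraries held under 300000 (WT RPM of mouse 24323, TLR7.1 RPM of mouse 24380 and TLR7.1 iHPC of mouse 24380). Tlr7 averaged 1029 ± 340 CPM in TLR7.1 RPM and 222 ± 107.5 CPM in WT RPM, and 995 ± 181 CPM in TLR7.1 Mono and 307 ± 52.8 CPM in WT Mono (SD, n = 6 each), with no overlap between the genotypes. Defining markers went with the sort labels: the summed CPM of 6 RPM markers such as Vcam1 and Spic was 1219 to 2272 in the iHPC libraries, 5208 to 12750 in the 12 RPM libraries and 412 to 596 in the 12 Mono libraries, and that of 6 monocyte markers such as Ccr2 was 4141 to 6037 in the 12 Mono libraries and at most 67.7 elsewhere. The iHPC libraries also held transcripts of other cells, given beside the results that they touch. In sorted bulk samples, a smaller number of cells of a kind and less RNA per cell cannot be told apart.

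Irf8 was the member that set iHPC apart from all 4 other groups. TLR7.1 iHPC libraries had 73.8, 91.0 and 130.3 CPM (lowest, median and highest), against 302, 432 and 666 CPM in TLR7.1 RPM. TLR7.1 Mono had 310.4, 364 and 417 CPM, WT RPM 419, 516 and 709 CPM, and WT Mono 397, 459 and 592 CPM. Every iHPC library lay below every library of the 4 other groups, whose medians ran in the order WT RPM, WT Mono, TLR7.1 RPM and TLR7.1 Mono from high to low. Neighbours in that order overlapped, whereas WT RPM (419 CPM or more) and TLR7.1 Mono (417 CPM or less) did not. Irf8 fell in iHPC against RPM, with a log2 fold change of -2.27 ± 0.181 (adjusted p = 1.04e-11), a 4.81-fold difference, and was lower in iHPC in each of the 6 mice. Against Mono of the same mice it was lower by a log2 fold change of -1.97 ± 0.179 (adjusted p = 8.24e-11). Between RPM and Mono it was not called in TLR7.1 mice (0.30, 95% interval -0.04 to 0.64, adjusted p = 0.145) or in WT mice (0.13, interval -0.22 to 0.47, adjusted p = 0.567), though a stricter filter on low counts called it in TLR7.1 mice (0.45, adjusted p = 0.0278). Within each collection date, with 2 mice a date, the log2 difference between iHPC and RPM was -1.83, -2.66 and -2.18.

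**Figure D1:**
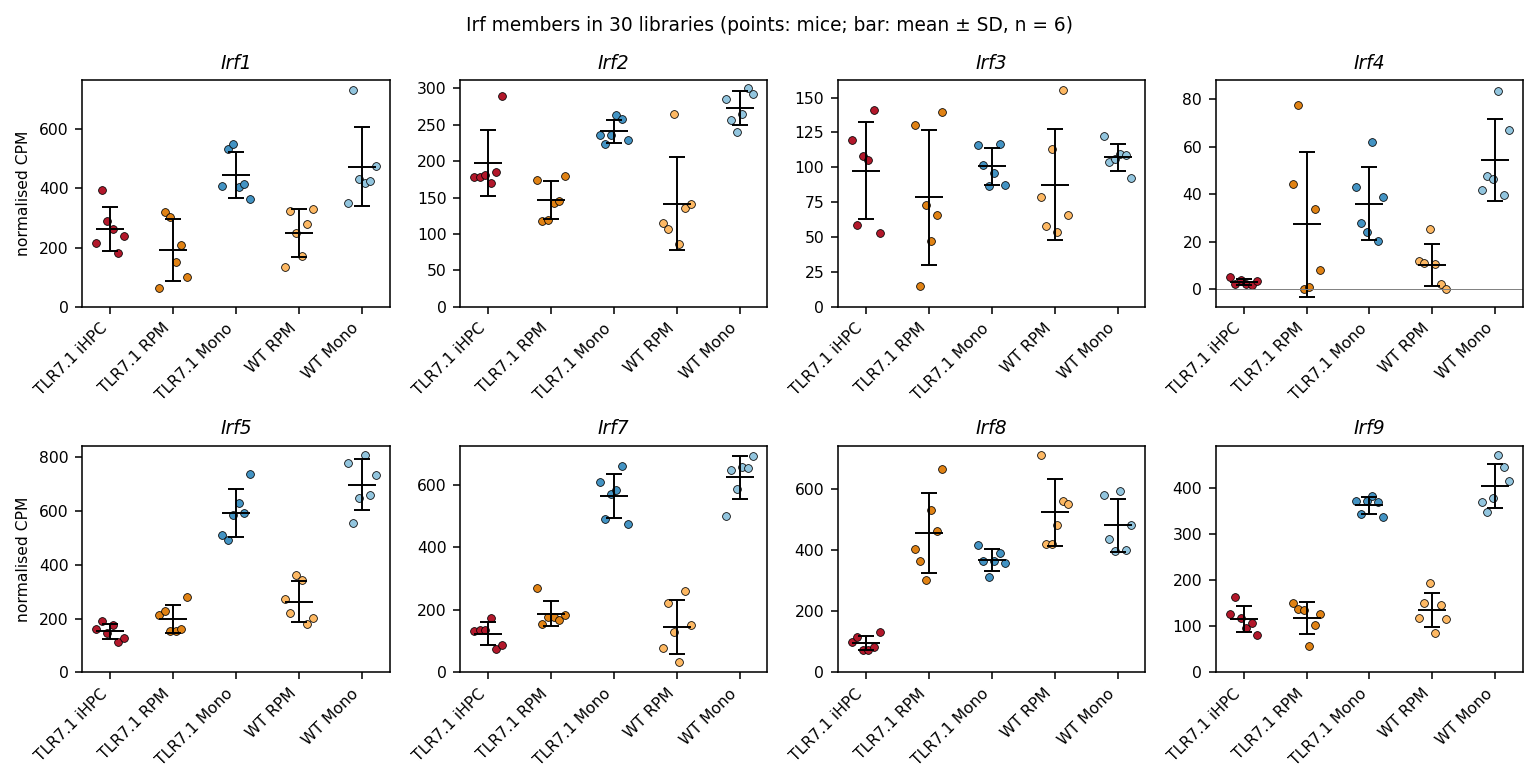
Normalised CPM (y axis, linear, a separate scale per panel) of the 8 Irf members in the 6 libraries of each group; points are mice and bars the mean ± SD. Irf8 sits at 73.8 to 130.3 CPM in TLR7.1 iHPC and at 302 or more in the other groups, while Irf5, Irf7 and Irf9 are high in both Mono groups.

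Markers of other cells that use Irf8 were present in uneven amounts. The summed CPM of 8 B cell markers was 194 to 580.4 in TLR7.1 iHPC, 341 to 1486 in TLR7.1 RPM and 61.1 to 221 in TLR7.1 Mono. Of 8 plasmacytoid dendritic cell markers, the defining genes Siglech and Klk1 had no count in any library, and the list summed to 78.7 to 199 CPM in iHPC, 162 to 541 CPM in TLR7.1 RPM and 45.5 to 137.5 CPM in TLR7.1 Mono. The 8 conventional dendritic cell markers summed to 185.5 to 327.5 CPM in iHPC, 174.5 to 333 CPM in TLR7.1 RPM and 169 to 565 CPM in TLR7.1 Mono. Basophil and mast cell markers (6 genes, among them Cpa3 and Mcpt8) summed to 1605 to 3073 CPM in 5 iHPC libraries, 2.78 CPM in the iHPC library of mouse 24261, 0 to 5.21 CPM in TLR7.1 RPM and 1.21 to 10.5 CPM in TLR7.1 Mono. The iHPC library nearly free of them had 74.0 CPM of Irf8, within the 73.8 to 130.3 CPM of the other 5. The part of the B cell and dendritic cell transcripts in the difference was not tested.

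Irf4 was the least abundant member per exon length in every group, and it was lowest in iHPC. TLR7.1 iHPC libraries had 1.63, 2.87 and 5.06 CPM (lowest, median and highest), which rests on 18 counts over 6 libraries, and TLR7.1 RPM had 0, 20.8 and 77.5 CPM. TLR7.1 Mono had 20.4, 33.2 and 61.8 CPM, WT RPM 0, 10.8 and 25.2 CPM, and WT Mono 39.7, 47.1 and 83.6 CPM. The iHPC range lay below both Mono ranges and inside both RPM ranges. The log2 fold change was -3.55 ± 0.720 in iHPC against Mono (adjusted p = 0.000169). Against RPM it was -3.22 ± 0.731 (adjusted p = 0.000988), yet Irf4 was higher in iHPC than in RPM in 2 of the 6 mice. Leaving out mouse 24107, whose RPM library held 100 of the group's 151 Irf4 counts, gave -2.40 (adjusted p = 0.025), the 2 mice of 26 December gave 0.62 in the opposite direction, and with the mouse as a random block the call was lost (-1.72, adjusted p = 0.141). In WT mice Irf4 was lower in RPM than in Mono by -2.35 ± 0.669 (adjusted p = 0.00429). In TLR7.1 mice that comparison was not called (-0.34, 95% interval -1.53 to 0.86, adjusted p = 0.667). It was called there with the mouse as a random block (-1.60, adjusted p = 0.0395), and it ranged over -1.14 without mouse 24107 and 0.17 without mouse 24304, so its direction rests on single mice. The difference between the genotypes in this comparison was itself not called for Irf4 (2.01, adjusted p = 0.378).

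Irf4 was uneven among TLR7.1 RPM libraries, and so were plasma cell transcripts. It had 77.5, 44.3, 33.6, 7.97, 1.07 and 0 CPM in mice 24107, 24068, 24308, 24380, 24304 and 24261. The summed CPM of 6 plasma cell markers (Jchain, Mzb1, Sdc1, Tnfrsf17, Derl3 and Tnfrsf13b) in the same libraries was 2131, 2073, 1794, 124, 1891 and 1033. The 3 libraries with the most Irf4 were thus high in these markers, but those of mice 24304 and 24261 were high in them with little or no Irf4. WT RPM libraries summed to 5.98 to 1084 CPM with a median of 33.8, and iHPC libraries to 123 to 174 CPM. Derl3 made up most of the iHPC sums, at 96.5 to 113.8 CPM. Jchain averaged 20.5 ± 17.0 CPM there, Mzb1 7.86 ± 3.65 CPM and Sdc1 5.78 ± 8.66 CPM. B cell and T or NK cell markers were also highest in TLR7.1 RPM, at up to 1486 CPM in mouse 24308 and 1587 CPM in mouse 24107. The library of mouse 24107 also held the most Irf4. T or NK cell markers summed to 4.12 to 356 CPM in the rest of that group. The part of such cells in the Irf4 values was not tested.

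**Figure D2:**
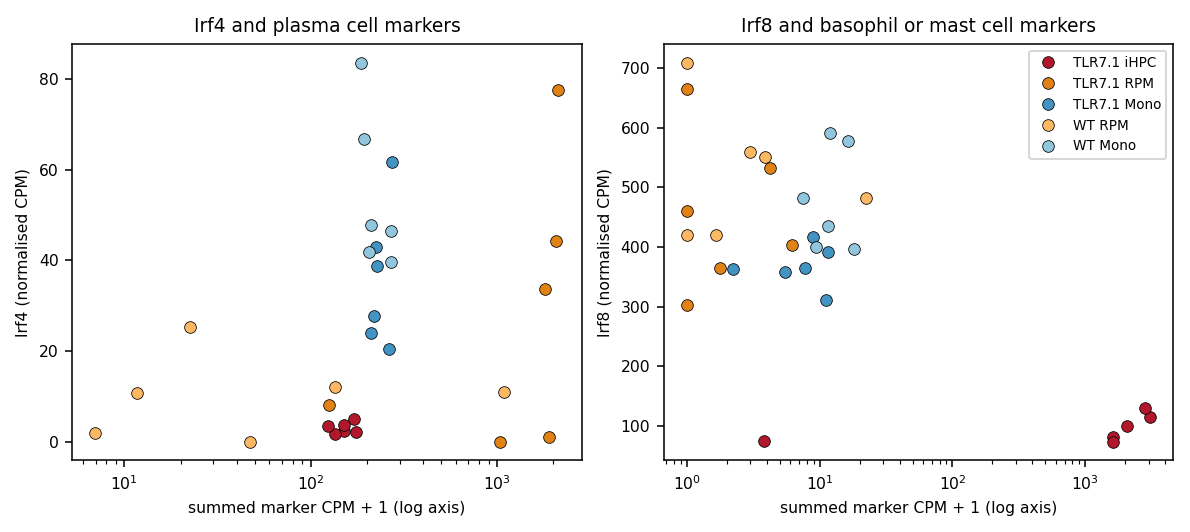
Left, Irf4 (normalised CPM, linear axis) against the summed CPM + 1 of plasma cell markers (log axis) in the 30 libraries; right, Irf8 against the summed CPM + 1 of basophil and mast cell markers (log axis); colours are groups. TLR7.1 RPM libraries with 1033 CPM or more of plasma cell markers hold 0 to 77.5 CPM of Irf4, and the single iHPC library at 2.78 CPM of basophil markers has the same low Irf8 as the other 5.

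Irf5, Irf7 and Irf9, the members that carry TLR7 signals to cytokine genes and interferon signals to the nucleus, were high in Mono and low in both tissue phagocytes. Irf5 had 112.0, 153.5 and 189.6 CPM in TLR7.1 iHPC (lowest, median and highest), 153, 186 and 279 CPM in TLR7.1 RPM and 494, 588.5 and 739 CPM in TLR7.1 Mono. In WT mice Irf5 had 181, 246 and 364 CPM in RPM and 555, 698 and 809 CPM in Mono. Mono did not overlap with the other groups. Irf7 had 73.6, 132 and 174 CPM in TLR7.1 iHPC, 153.5, 176 and 268 CPM in TLR7.1 RPM and 475, 576 and 661 CPM in TLR7.1 Mono, with 32.1, 139 and 261 CPM in WT RPM and 501, 651 and 692 CPM in WT Mono. Irf9 had 81.0, 113 and 164 CPM in TLR7.1 iHPC, 56.8, 131 and 151 CPM in TLR7.1 RPM and 337, 371 and 383 CPM in TLR7.1 Mono, with 85.6, 132 and 194.5 CPM in WT RPM and 348, 397 and 471 CPM in WT Mono. For all 3 genes the Mono libraries of either genotype stood above every RPM and iHPC library, and the RPM and iHPC ranges overlapped.

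In iHPC against Mono, Irf5 fell by 1.95 ± 0.175, Irf7 by 2.19 ± 0.234 and Irf9 by 1.64 ± 0.182 on the log2 scale (adjusted p = 5.76e-11, 3.31e-09 and 7.36e-09). In RPM against Mono of TLR7.1 mice the 3 log2 fold changes were -1.60 ± 0.174, -1.60 ± 0.231 and -1.64 ± 0.185, and in WT mice -1.43 ± 0.175, -2.0 ± 0.237 and -1.54 ± 0.186, all called. Between iHPC and RPM none of the 3 was called. Irf9 had an interval of -0.39 to 0.39 around no difference, Irf5 a log2 fold change of -0.36 ± 0.175 (adjusted p = 0.135), and Irf7 one of -0.58 ± 0.235 (adjusted p = 0.0625) with lower values in iHPC in each of the 6 mice. Irf7 lay close to the threshold: it passed it with DESeq2 (adjusted p = 0.049), with the mouse as a fixed block (0.0478) and with a stricter filter on low counts (0.0407).

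Irf1 and Irf2, an activator and its antagonist, were moderately higher in Mono. Irf1 had 181, 251 and 393 CPM in TLR7.1 iHPC (lowest, median and highest), 65.1, 179.7 and 319 CPM in TLR7.1 RPM and 362, 409.6 and 549 CPM in TLR7.1 Mono, with 136, 265 and 329.9 CPM in WT RPM and 349.7, 428 and 730.4 CPM in WT Mono. Irf2 had 169.8, 180.0 and 289 CPM in TLR7.1 iHPC, 118, 144 and 179 CPM in TLR7.1 RPM and 223, 236 and 263.5 CPM in TLR7.1 Mono, with 85.6, 125 and 265 CPM in WT RPM and 239.6, 275 and 299.7 CPM in WT Mono. RPM and Mono did not overlap for Irf1 in either genotype, nor for Irf2 in TLR7.1 mice, whereas iHPC overlapped with both for each gene. In iHPC against Mono, Irf1 fell by 0.75 ± 0.258 on the log2 scale (adjusted p = 0.0199), a call that was lost without mouse 24308 (-0.67, adjusted p = 0.0783) or without mouse 24261 (-0.71, adjusted p = 0.0506), and Irf2 was not called (-0.31, 95% interval -0.67 to 0.05). Irf2 was called there with the mouse as a random block (-0.39, adjusted p = 0.0104) and without the libraries under 300000 counts (-0.39, adjusted p = 0.0496). In RPM against Mono, Irf1 was lower by -1.18 ± 0.262 in TLR7.1 mice and -0.90 ± 0.264 in WT mice, and Irf2 by -0.73 ± 0.181 and -0.91 ± 0.184, all called. In iHPC against RPM neither was called: Irf1 had a log2 fold change of 0.42 ± 0.263 (adjusted p = 0.25) and Irf2 one of 0.43 ± 0.183 (adjusted p = 0.0831), with Irf2 higher in iHPC in each of the 6 mice. Irf2 passed the threshold there with the mouse as a random block (0.42, adjusted p = 0.0415) and with DESeq2 (0.44, adjusted p = 0.0421).

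Irf3 was not called by edgeR in any comparison. It had 52.8, 107 and 141 CPM in TLR7.1 iHPC (lowest, median and highest), 14.7, 69.5 and 139.5 CPM in TLR7.1 RPM, 86.3, 98.9 and 117 CPM in TLR7.1 Mono, 53.5, 72.6 and 155 CPM in WT RPM and 92.6, 107.5 and 122 CPM in WT Mono. All 5 ranges overlapped. The log2 fold change was 0.43 (95% interval -0.24 to 1.09) in iHPC against RPM, -0.02 (-0.65 to 0.61) in iHPC against Mono, -0.45 (-1.10 to 0.21) in RPM against Mono of TLR7.1 mice and -0.25 (-0.91 to 0.40) in WT mice, so differences of up to about 1 on that scale lie within the intervals. With the mouse as a random block Irf3 was called higher in iHPC against RPM (1.08, adjusted p = 0.00965) and lower in RPM against Mono of TLR7.1 mice (-1.07, adjusted p = 0.00363).

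Counted over the family, 0 members were higher and 2 lower in iHPC against RPM, where 27.1% of all genes were called in either direction, 13.6% higher and 13.5% lower. In iHPC against Mono 0 were higher and 6 lower, beside 38.7% of all genes called, 19.3% higher and 19.4% lower. In RPM against Mono 0 were higher and 5 lower in TLR7.1 mice (46.6% of all genes called, 23.9% higher and 22.6% lower), and 0 higher and 6 lower in WT mice (46.2% called, 23.7% higher and 22.5% lower). Groups did not overlap for 1 member in iHPC against RPM, 5 in iHPC against Mono, and 5 in RPM against Mono of either genotype, beside 11.2%, 31.9%, 27.2% and 26.1% of all genes. The median log2 fold change of the 8 members was -0.18 in iHPC against RPM, -1.80 in iHPC against Mono, -0.96 in RPM against Mono of TLR7.1 mice and -1.17 in WT mice, while all tested genes had a median near 0 in each. These comparisons share libraries, so their counts are not independent of one another.

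**Figure D3:**
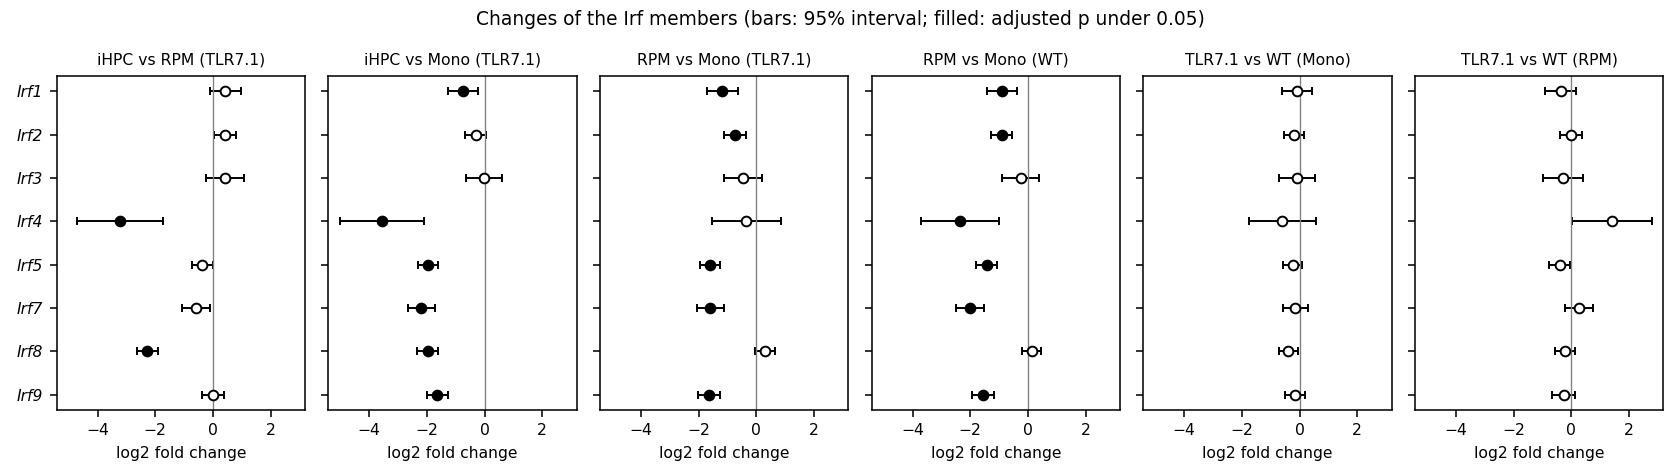
Log2 fold changes (x axis) of the 8 Irf members in 6 comparisons, with 95% intervals; filled points passed the adjusted p threshold. The 2 filled points of iHPC against RPM are Irf4 and Irf8, no point is filled in either comparison of genotypes, and every filled point lies left of 0.

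Tlr7 overexpression went with no called change of any member in either population. In TLR7.1 against WT Mono 0 of 8 members were called by edgeR, where 2.10% of all genes were, and DESeq2 also called 0. When only the groups compared were fitted, Irf8 was called lower in TLR7.1 Mono (-0.38, adjusted p = 0.0393), and 737 of 9878 genes were called in Mono and 160 of 7945 in RPM, so which population has more genes called depends on that choice. In TLR7.1 against WT RPM 0 of 8 were called by edgeR, where 8.25% of all genes were, and DESeq2 again called 0. At an unadjusted p under 0.05 there was 1 member in Mono, Irf8 (log2 fold change -0.39, 95% interval -0.72 to -0.05, adjusted p = 0.471), and there were 2 in RPM, Irf4 (1.42, interval 0.04 to 2.80, adjusted p = 0.205) and Irf5 (-0.40, interval -0.76 to -0.04, adjusted p = 0.164). Genotypes overlapped for all 8 members in both populations, while they did not overlap for 4.17% of all genes in Mono and 1.72% in RPM. Irf7, itself an interferon-responsive gene, had a log2 fold change of 0.26 (interval -0.23 to 0.74) in RPM and -0.14 (interval -0.59 to 0.30) in Mono. The effect in RPM minus that in Mono was called for 0 of 8 members (0.689% of all genes), with 1 at an unadjusted p under 0.05 (Irf4, 2.01, adjusted p = 0.378) and 0 by DESeq2. For the members other than Irf4, the intervals in either population stayed within 1 of 0 on the log2 scale.

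Because exon lengths differ, members were compared with one another only as CPM per kb of exonic sequence, a level with lengths from GENCODE M21. The family summed to 242 ± 30.5 CPM per kb in TLR7.1 iHPC, 300.5 ± 34.6 in TLR7.1 RPM, 654 ± 23.9 in TLR7.1 Mono, 337 ± 39.6 in WT RPM and 746 ± 45.5 in WT Mono (SD, n = 6 each). Irf5 was the most abundant member per length in the 4 RPM and Mono groups, and Irf1 in iHPC at 66.3 ± 18.5 CPM per kb, where Irf5 had 52.3 ± 10.2. Irf8 made up 5.70 ± 1.60% of the sum in TLR7.1 iHPC, 21.5 ± 5.80% in TLR7.1 RPM, 7.98 ± 0.865% in TLR7.1 Mono, 22.4 ± 5.95% in WT RPM and 9.11 ± 1.40% in WT Mono. The ratio of Irf5 to Irf8 per length had medians of 3.97 in TLR7.1 iHPC, 1.13 in TLR7.1 RPM, 3.95 in TLR7.1 Mono, 1.10 in WT RPM and 3.51 in WT Mono. The iHPC libraries thus had the low family level of RPM with a ratio of Irf5 to Irf8 of 2.36 to 5.78, above the 0.700 to 1.53 of TLR7.1 RPM and overlapping with the 2.98 to 5.02 of TLR7.1 Mono. Exons of 5 members overlap those of a neighbouring gene, with 411 shared bases for Irf5 and Tnpo3, 135 for Irf1 and Gm17334, 123 for Irf9 and Rnf31, 88 for Irf3 and Bcl2l12 and 45 for Irf7 and Phrf1, and how reads there were assigned is not given in the sources used here.

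**Figure D4:**
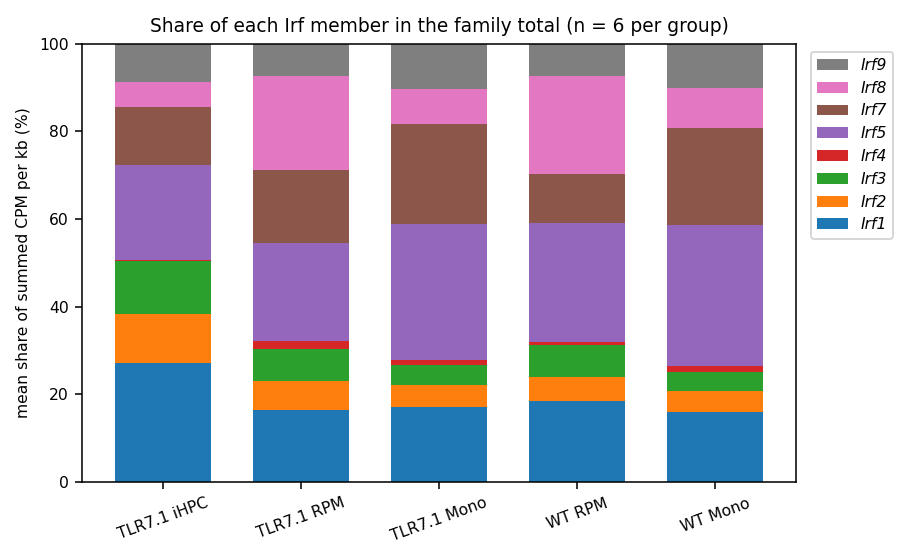
Mean share (percent, y axis from 0) of each Irf member in the summed CPM per kb of the family, by group, n = 6 libraries each. Irf8 takes 21.5% in TLR7.1 RPM and 22.4% in WT RPM, against 5.70% in TLR7.1 iHPC, 7.98% in TLR7.1 Mono and 9.11% in WT Mono.

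The lists that follow were chosen with earlier results of these data known, so the shares called describe them and are no test. Of 16 tested kinases and adaptors that activate IRF proteins, 9 were higher and 1 lower in iHPC against RPM, which is 62.5% called beside 27.1% of all genes. In iHPC against Mono 5 were higher and 4 lower (56.2% called beside 38.7%). The 4 lower genes were Tmem173, which encodes STING (-2.41, adjusted p = 2.33e-08), Myd88 (-1.33, adjusted p = 1.02e-07), Ikbkb (-0.94) and Unc93b1 (-0.64). Myd88 averaged 188 ± 31.0 CPM in TLR7.1 iHPC and 473 ± 13.7 CPM in TLR7.1 Mono. In RPM against Mono most calls were lower, as for the members, with 1 higher and 9 lower in TLR7.1 mice (62.5% beside 46.6%, median -0.65) and 2 higher and 6 lower in WT mice (8 of 16 called beside 46.2%, median -0.66). Tasl (5430427O19Rik), the adaptor that brings IRF5 to the endosomal receptors, averaged 299 ± 97.5 CPM in TLR7.1 iHPC, 69.3 ± 27.0 CPM in TLR7.1 RPM and 143 ± 33.9 CPM in TLR7.1 Mono, and rose in iHPC by 2.07 and 1.07 on the log2 scale against RPM and Mono. The IRF3 and IRF7 kinase Ikbke rose in iHPC against RPM by 1.81 (adjusted p = 0.000431) and the ubiquitin ligase Traf3 by 1.45 (adjusted p = 0.0034), whereas Mavs, the adaptor of RIG-I-like receptors, fell by 1.31 (adjusted p = 0.00177). The median log2 fold change of the 16 genes in iHPC against RPM was 0.81, and in the alternatives run 4 to 9 of them were called higher. Between genotypes, Ikbke was higher and Tbk1 lower in TLR7.1 against WT RPM (2.06 and -1.18, adjusted p = 0.00443 and 0.00895), which is 12.5% called beside 8.25% of all genes. In Mono 0 of the 16 were called by edgeR and 0 by DESeq2, beside 2.10% of all genes by edgeR.

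Partner genes of IRF4 and IRF8 moved in both directions in iHPC. Spi1, which encodes PU.1, averaged 558 ± 68.8 CPM in TLR7.1 iHPC, 309 ± 63.1 CPM in TLR7.1 RPM and 747 ± 91.3 CPM in TLR7.1 Mono, and was called higher than in RPM (0.85) and lower than in Mono (-0.42). Batf3, which supports Irf8 expression in dendritic cells, averaged 310.2 ± 32.3 CPM in TLR7.1 iHPC, 179 ± 36.7 CPM in TLR7.1 RPM and 102 ± 21.3 CPM in TLR7.1 Mono, called higher in both comparisons (0.79 and 1.60). Batf and Ikzf1 were also called higher in iHPC against RPM (1.12 and 0.69). Spib, a PU.1 relative of B cells and plasmacytoid dendritic cells, was lower (-3.42, adjusted p = 0.00185), at 2.07 ± 2.58 CPM in iHPC and 25.9 ± 14.0 CPM in TLR7.1 RPM, as was Tcf3 (-1.19), beside the B cell markers given above. In all, 4 of 9 partners were higher and 2 lower against RPM (66.7% called beside 27.1% of all genes, median -0.47), and 3 higher and 2 lower against Mono (55.6% beside 38.7%). Stat2, which binds IRF9 in ISGF3, was lower in iHPC against Mono (-0.99, adjusted p = 0.00288). Among 11 tested corepressors and modifiers of IRF proteins, 2 were higher and 1 lower in iHPC against RPM (median 0.01), a share of 27.3% that is near the 27.1% of all genes, and 0 to 2 were higher and 0 to 1 lower over the alternatives run. The 3 are Tnfaip3 (0.81, adjusted p = 0.0472), Lyn, a kinase that restrains IRF5 (0.44, adjusted p = 0.0134), and Irf2bp2, a corepressor bound by IRF2 (-0.83, adjusted p = 0.0181).

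**Figure D5:**
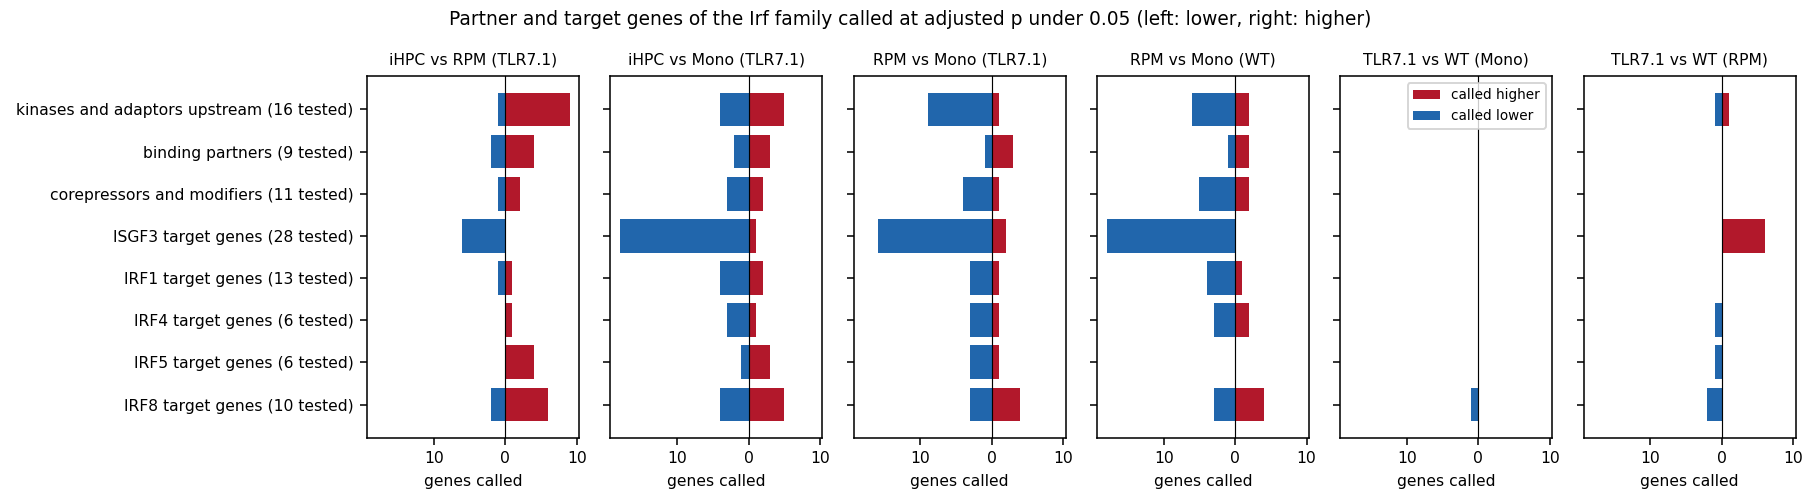
Number of genes (x axis) of each partner or target list that passed the adjusted p threshold, red for higher and blue for lower, in 6 comparisons. ISGF3 target genes are called lower in iHPC (18 of 28) and RPM (16 of 28) against Mono of TLR7.1 mice, while 9 of 16 upstream genes are called higher in iHPC against RPM.

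ISGF3 target genes, which Irf9 serves, were mostly lower in both tissue phagocytes. Of 28 tested, 1 was higher and 18 lower in iHPC against Mono, 2 higher and 16 lower in RPM against Mono of TLR7.1 mice and 0 higher and 18 lower in WT mice, with medians of -1.37, -0.96 and -1.41 on the log2 scale. The shares called were 67.9%, 64.3% and 64.3%, beside 38.7%, 46.6% and 46.2% of all genes. Usp18, which shuts off interferon receptor signalling, averaged 26.6 ± 6.65 CPM in TLR7.1 iHPC and 339.5 ± 26.1 CPM in TLR7.1 Mono (-3.69, adjusted p = 1.03e-07). Rsad2, the antiviral enzyme viperin, went the other way, at 413 ± 162 CPM in iHPC and 551 ± 132 CPM in TLR7.1 RPM beside 121 ± 32.5 CPM in TLR7.1 Mono (1.76 and 2.18). Between iHPC and RPM 0 were higher and 6 lower (21.4% called beside 27.1% of all genes), led by Ifi44 (-3.86, adjusted p = 0.000251), and 4 were lower without the iHPC library of mouse 24261. In TLR7.1 against WT RPM 6 of 28 were called higher (Isg20, Oas3, Rsad2, Oasl2, Isg15 and Cmpk2) and 0 lower, which is 21.4% beside 8.25% of all genes, while no member was called in that comparison. Markers of other cells were called higher in the same comparison. They were 2 of 5 tested plasma cell markers, Jchain (1116 ± 604 CPM in TLR7.1 RPM and 127 ± 303 CPM in WT RPM, adjusted p = 0.0389) and Sdc1 (adjusted p = 0.0355), and 3 of 6 erythroid markers, among them Slc4a1 and Klf1, and their part in the ISGF3 target values was not tested. Isg20, an RNA exonuclease, averaged 243 ± 128.5 CPM in TLR7.1 RPM and 45.5 ± 47.3 CPM in WT RPM (2.22, adjusted p = 0.000971), and Rsad2 averaged 551 ± 132 and 179 ± 68.2 CPM in the same groups (1.68, adjusted p = 0.000129). The count was also 6 without the 3 libraries under 300000 counts and with DESeq2, and over all alternatives run 2 to 9 were called higher. In Mono 0 of 28 were called between genotypes by edgeR and 0 by DESeq2, beside 2.10% of all genes by edgeR. At so small a share, few calls would be seen among 28 genes. The genotype effect was larger in RPM than in Mono for Rsad2 (2.21, adjusted p = 0.000929) and Isg20 (2.54, adjusted p = 0.0231).

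Listed target genes of single members were called in both directions. Of 10 tested target genes of IRF8, 6 were higher and 2 lower in iHPC against RPM (80.0% called beside 27.1% of all genes), the comparison in which Irf8 was 4.81-fold lower, and 3 to 6 were higher over the alternatives run. Klf4, a monocyte transcription factor, averaged 49.7 ± 22.9 CPM in TLR7.1 iHPC and 11.6 ± 7.75 CPM in TLR7.1 RPM (2.15), Bcl6 91.1 ± 50.2 and 22.3 ± 16.0 CPM (2.0), and the oxidase subunit Cybb 1284 ± 198 and 710.1 ± 166 CPM (0.86), all called higher. Il18 was lower at 25.5 ± 11.1 CPM in iHPC and 529 ± 124 CPM in RPM (-4.30, adjusted p = 4.06e-15), and the protease gene Ctsc at 730.4 ± 168 and 1691 ± 231 CPM (-1.21). Of 6 tested IRF5 target genes 4 were higher and 0 lower in iHPC against RPM (66.7% called beside 27.1% of all genes), where Irf5 was not called. Over the alternatives run 1 to 4 were higher, and without the iHPC library of mouse 24261 4 were higher and 1 lower. Among the 4, Il12b had 0 CPM in every other group, so it passed the filter on low counts only through iHPC. Il6 averaged 84.7 CPM in iHPC and 5.95 CPM or less in the other groups. The share called is therefore no test of this list. Il1b averaged 1294 ± 370.0 CPM in iHPC and 250.5 ± 73.0 CPM in RPM (2.38, adjusted p = 8.5e-09), and Tnf 32.9 ± 12.9 and 5.23 ± 6.82 CPM (2.94, adjusted p = 0.011). Il6 had 487 counts in the 6 iHPC libraries and 0 in the 6 TLR7.1 RPM libraries, at least 121-fold higher against a floor of 3 counts over the RPM group, and Il12b had 188 and 0 counts, at least 46.8-fold higher by the same floor. Basophil and mast cell transcripts, given above, were likewise high in 5 iHPC libraries. In the iHPC library nearly free of them Il6 was 10.2 CPM, below the 45 to 138.6 CPM of the other 5 libraries. Il12b was 23.1 CPM there against 10.6 to 38.8 CPM in the other 5, Il1b 1387 against 986 to 1951 CPM, and Tnf 45.3 against 14.1 to 41.3 CPM. Of these 4 genes only Il6 lay below the range of the other 5 libraries. The part of basophils and mast cells in the Il6 values was not tested. The median log2 fold change was 0.67 over the 10 IRF8 targets and 2.66 over the 6 IRF5 targets, and placing the genes without RPM counts at their bound leaves both medians as they are. The IRF4 target Pdcd1lg2, which encodes PD-L2, averaged 160 ± 25.3 CPM in iHPC, 22.9 ± 12.8 CPM in RPM and 2.86 ± 2.17 CPM in TLR7.1 Mono. It was called higher in iHPC in both comparisons (2.75 and 5.73), in which Irf4 was lower. Against RPM it was the 1 of 6 tested IRF4 targets called (16.7% beside 27.1%). Against Mono 1 of the 6 was higher and 3 were lower (66.7% beside 38.7% of all genes, median -2.19). The lower ones, like Irf4 itself, included Chil3 (-6.63) and Cd209a (-4.93). Il12b also counts among the IRF8 and IRF1 targets, where the same limit of the filter holds, and it is the 1 IRF1 target called higher against RPM. Of 13 tested IRF1 target genes 1 was higher and 1 lower in iHPC against RPM (15.4% called beside 27.1% of all genes, median -0.18), and 2 were higher and 4 lower against Mono (46.2% beside 38.7%), among them Ciita, the class II transactivator (-2.97, adjusted p = 2.09e-05).

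Interferon genes other than Ifng, among them outputs of Irf3 and Irf7, were near the limit of detection where they could be matched. Of 18 listed with Ifng included, 11 were matched by symbol, 8 of these had 0 counts in all 30 libraries, and none passed the filter for testing. Ifnb1 had 1 count over all libraries, and Ifng, made by T and NK cells, had 131 counts in 6 libraries, with 86.8 CPM in 1 TLR7.1 RPM library.

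Genes with the most similar pattern to each member were sought over the 30 libraries by Pearson's r on log2(CPM + 1), which the shared sort groups and library depth can set. For Irf8 they were Rasgrp2 (r = 0.949), Pla2g7 (0.925) and Pak1 (0.922), and Rasgrp2 averaged 50.5 CPM in TLR7.1 iHPC, 230.1 CPM in TLR7.1 RPM and 190.5 CPM in TLR7.1 Mono. For Irf5 they were Ifngr1 (0.939), Arhgdia (0.930) and Zyx (0.928), for Irf7 Sp100 (0.945), Xaf1 (0.934) and Ccl6 (0.923), and for Irf9 Samhd1 (0.953), Evi2a (0.940) and Zyx (0.939). For Irf1 they were Clp1 (0.890), Rnf115 (0.887) and Casp4 (0.878), and for Irf2 Camkk2 (0.920), Ikbkb (0.887) and Tpd52 (0.873). Irf3 and Irf4 had no neighbour above 0.758 (Gfm2) and 0.822 (Uhrf1bp1l). Among the members, Irf5 and Irf9 had the highest r (0.908), followed by Irf7 and Irf9 (0.881), while Irf8 had r of -0.007 with Irf1, -0.057 with Irf2, 0.335 with Irf7 and 0.509 with Irf5, over the same 30 libraries.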

How the data were processed

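RNA of 30 libraries of 500 sorted cells each was measured by full-length cDNA sequencing (SMART-Seq v4 and Nextera XT, per the labels' protocols). The authors deposited raw read counts per Ensembl gene ID. The submitters' processing notes name CASAVA 1.8.2, TopHat, Bowtie, HTSeq 0.4.1 and the build NCBIM37, and no source used here gives the annotation release or the strand setting. How reads on exons shared by neighbouring genes were counted is thus not known, and PCR duplicates cannot be told from separate molecules here. Library totals were 95002 to 1932427 counts, and 0 pairs of libraries were identical.

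Symbols and exon lengths came from GENCODE M21 (32919 of 37991 IDs matched), and promoters from RefSeq (GRCm38.p6), so no gene coordinates are taken from the files. Groups were read from the sample titles. All 5 groups were fitted in 1 model with edgeR 4.0.16 (R 4.3.3; TMM scaling, filterByExpr, robust quasi-likelihood, two-sided), which left 11030 genes, and genes were called at an adjusted p under 0.05. DESeq2 1.42.0 and limma 3.58.1 (voom) served as alternatives, as did other scalings and filters, thinning to 95002 counts, collection dates and each mouse left out. The fits were tested on simulated data. The mouse numbers in the labels pair libraries of the same animal, whose deviations from the group means correlated at -0.0774 to 0.209. Replicates are separate mice.

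The highest member density was 0.432 reads per base (Irf5), at most 27.9% of the densest gene in its library. Genes named from the partner and target lists were picked mostly by size of change among called genes that reach 20 CPM in either group. Genes that changed most against the main direction were added. The named genes are not a complete ranking, and some larger changes are not named. Cybb, Ctsc and Isg15 were chosen after their values were seen. The members and lists were chosen with earlier results of these data known.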

Additional observations from a re-analysis of the deposited data

Results flagged for a closer look

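Of 40 sets of 6 libraries (8 members in 5 groups), 4 held a library far from the other 5 by Dixon's criterion, where chance alone flags about 1 in 20 sets. Irf1 reached 730.4 CPM in the WT Mono library of mouse 24117, against 349.7 to 475 CPM in the others. Irf2 reached 288.8 CPM in the TLR7.1 iHPC library of mouse 24380, against 169.8 to 185 CPM in the others, and rests there on 82 counts of 292507. Irf2 reached 264.7 CPM in the WT RPM library of mouse 24214, against 85.6 to 141 CPM in the others. Irf7 reached 268.2 CPM in the TLR7.1 RPM library of mouse 24068, against 153.5 to 183 CPM in the others.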

How the results depend on the processing

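Over 1279 repeats of a member's test under another setting, 1258 stayed on the same side of the threshold, 4 lost the call and 17 gained one, and no called value changed direction in them. In iHPC against RPM the number of members called was 2, and 4 with DESeq2 (1 higher, 3 lower), where Irf2 (0.44, adjusted p = 0.0421) and Irf7 were added. DESeq2 called 3318 of all 11030 genes in that comparison, and the main fit 2993. The number of members called was 1 when only the 2 groups compared were fitted, since Irf4 then failed the filter and 7 members were tested. In TLR7.1 against WT Mono it was 0, and 1 when only those groups were fitted (Irf8, -0.38, adjusted p = 0.0393). Leaving out each mouse gave 2 to 3 members in iHPC against RPM, 5 to 6 in iHPC against Mono, 5 to 5 in RPM against Mono of TLR7.1 mice, 6 to 6 in WT mice and 0 to 0 in each comparison of genotypes and in their difference. Within collection dates, 56 of 57 values of called members kept their direction, and Irf4 in iHPC against RPM was 0.62 on 26 December. With the replicate block as a random term (limma voom), 3 members were called in iHPC against RPM, Irf3 (1.08, adjusted p = 0.00965) and Irf2 (0.42, adjusted p = 0.0415) gained and Irf4 lost; in RPM against Mono of TLR7.1 mice Irf3 (-1.07) and Irf4 (-1.60) were gained, and in iHPC against Mono Irf2 (-0.39). That fit called 3588 of all 11030 genes in iHPC against RPM, 5087 in iHPC against Mono and 5988 in RPM against Mono of TLR7.1 mice. The main fit called 2993, 4270 and 5135. With the random term the median log2 fold change of all genes was 0.13 in iHPC against RPM and -0.20 in RPM against Mono of TLR7.1 mice. The main fit had medians of -0.0 and -0.03. As a fixed term the block added Irf7 in iHPC against RPM and could not be fitted between genotypes. Irf5 in iHPC against RPM was gained on thinned counts (-0.78, adjusted p = 0.0275), where Irf2 in RPM against Mono of TLR7.1 mice was lost (adjusted p = 0.0645), and Irf8 there was gained with the stricter filter (0.45, adjusted p = 0.0278). When only the groups compared were fitted, the number of all genes called was 1753 in place of 2993 in iHPC against RPM, 737 in place of 232 in TLR7.1 against WT Mono and 160 in place of 910 in TLR7.1 against WT RPM. The causes were not tested. Depth limits Irf4, with 18 counts in iHPC and 40 in WT RPM, and the interferon genes.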
